A study of Mus musculus with 12 samples.

Results

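EMT6 is a mouse breast cancer cell line, and the account below is of its control subclone, labelled shNTC for its control short hairpin RNA. RNA was sequenced from shNTC cells kept for 48 hours at 1% O2 (3 libraries) or at 20% O2 (3 libraries), and these 6 libraries of the 12 in the series were chosen by their labels alone. The other 6 libraries came from a subclone in which a hairpin lowers ISG20, the interferon-stimulated exonuclease (shISG20), at 1% O2 and at 20% O2, and they enter only where the effect of oxygen in both subclones is set side by side. The labels give the shNTC cells as wild type and tell no clones apart within a hairpin, so the values describe these subclones in culture and not EMT6 cells in general.

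Cells in low oxygen are known to stabilise the hypoxia-inducible factors (HIF), because the prolyl hydroxylases that mark HIF-alpha subunits for destruction need oxygen. HIF then pairs with ARNT and binds DNA at short elements with the core letters ACGTG or GCGTG, next to genes of glucose uptake, glycolysis, pH control, mitophagy, blood vessel growth and collagen processing. Separately from HIF, low oxygen is known to slow costly processes such as ribosome production and DNA synthesis.

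Expression was measured as TPM, which scales transcript counts per length to a fixed sum in each library, on rows that are human genes, since the build named for the alignment is human although the cells are mouse. A row therefore holds the mouse reads that aligned to the human gene, levels cannot be compared between genes, and a gene listed near 0 may be one whose mouse reads did not align. Of 60683 rows, 13445 reached 1 TPM in at least 3 of the 6 libraries and were tested, and 8281 of them match a mouse gene. Reads recovered from the TPM values summed to 3520400 to 4765241 per library at 1% O2 and 3413952 to 3745276 at 20% O2. Correlations of log2(TPM + 1) across rows were 0.973 to 0.979 between libraries at 1% O2, 0.969 to 0.971 between libraries at 20% O2 and 0.916 to 0.925 between oxygen levels, so no library stood apart from its group. The labels call the libraries of a group biological replicates without naming separate cultures, and a p-value here covers only how these libraries vary, which may be technical.

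The transcriptome of shNTC cells differed widely between the oxygen levels. With limma on log2(TPM + 1) and an adjusted p under 0.05, 1768 rows (13.1%) were higher and 5264 rows (39.2%) were lower at 1% O2, out of 13445. TPM values of a library share a fixed sum, and the 50 most abundant rows held 20.7 to 21.6% of it at 1% O2 against 16.6 to 16.7% at 20% O2. The median log2 fold change of all rows was -0.29 with TPM and 0.01 after scaling with median-of-ratios size factors, which set the typical row equal between libraries. With size factors 3210 rows (23.9%) were higher and 3026 (22.5%) were lower. Below, "rose" and "fell" are written only of rows that passed in the same direction with both scalings, which were 1768 rows (13.1%) that rose and 3026 rows (22.5%) that fell. These are all rows higher with TPM and all rows lower with size factors, so each direction is set by its stricter scaling. The libraries of the oxygen levels did not overlap in 61.2% of all rows. Genes named below were mostly chosen by large fold changes without overlap or by small p. Their separation follows in part from that choice and adds no further evidence. Fold changes are given on the log2(TPM + 1) scale with limma's standard error, and those of lists are best read against the median of -0.29. Counts within lists are best read against the shares of all rows, 13.1% risen and 22.5% fallen. Those shares include rows without a mouse match. Of the 8281 rows that match a mouse gene, 1176 rose and 2420 fell, larger shares in both directions, so a modest excess over 22.5% fallen should be read with care. In bulk RNA, fewer cells of a type and less RNA per cell cannot be told apart.

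**Figure D1:**
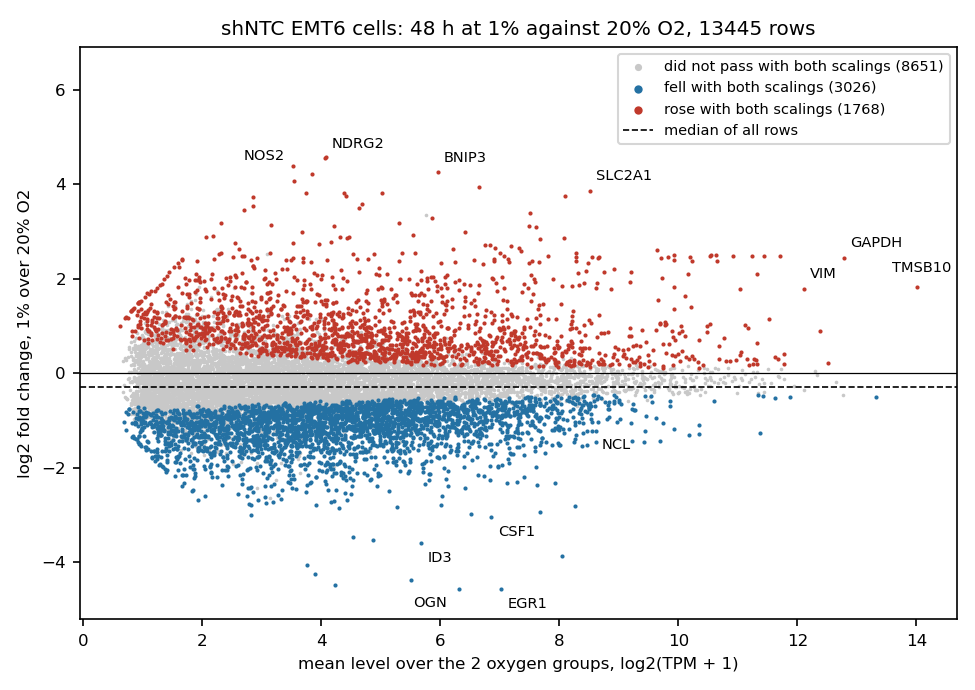
Mean level over both groups, as log2(TPM + 1), on the horizontal axis and the log2 fold change at 1% over 20% O2 on the vertical axis, for 13445 rows in shNTC cells. The 1768 rows that rose are red, the 3026 that fell are blue, and the dashed line is the median of all rows at -0.29.

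Among the parts of the oxygen-sensing system, the enzymes that hydroxylate HIF-alpha moved while the HIF1A transcript differed little. HIF1A, the alpha subunit that oxygen controls mainly at the protein level, had 104, 107 and 95.8 TPM at 1% O2, against 117, 109.9 and 110.1 TPM at 20% O2. Its difference did not pass (log2 fold change -0.13 ± 0.063, adjusted p = 0.12), and its sign depended on the scaling, at -0.13 with TPM and 0.21 (adjusted p = 0.022) with size factors. EPAS1, which encodes HIF-2-alpha, did not reach 1 TPM in 3 libraries and was not tested. ARNT, the partner of both, had 54.7, 52.4 and 52.9 TPM at 1% O2, against 42.6, 43.2 and 44.4 TPM at 20% O2 and rose slightly (log2 fold change 0.29 ± 0.06, adjusted p = 0.0065).

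EGLN3, a prolyl hydroxylase that is itself a known HIF target, had 39.2, 40.7 and 37 TPM at 1% O2, against 1.7, 2.58 and 1.72 TPM at 20% O2, a 19.5-fold higher mean at 1% O2 (log2 fold change 3.75 ± 0.14, adjusted p = 7.1e-06). EGLN1, the main HIF prolyl hydroxylase, had 185, 211 and 195 TPM at 1% O2, against 29.9, 26.3 and 31.9 TPM at 20% O2 (log2 fold change 2.71 ± 0.089, adjusted p = 3.8e-06). The groups did not overlap for either enzyme. CITED2, which competes with HIF for the coactivators CBP and p300, fell to 599.8 ± 86.5 TPM at 1% O2, against 1345 ± 55.8 TPM at 20% O2 (mean ± SD, n = 3 libraries each), and CUL2, the scaffold of the VHL ubiquitin ligase, fell by 0.82 on the log2 scale. RBX1, of the same ligase, and SIAH2, a ligase that acts on the prolyl hydroxylases, rose by 0.56 and 0.45. HIF1AN, the asparagine hydroxylase of HIF, and SIAH1, the relative of SIAH2, had log2 fold changes of -0.87 and -0.74 and fell. Of the 14 tested genes of this list, 5 rose and 4 fell, against 13.1% and 22.5% of all rows, with a median log2 fold change of -0.08. RBX1, SIAH2, HIF1AN and SIAH1 were named after their values were seen.

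Nearly every tested step from glucose uptake to pyruvate was higher at 1% O2. Of 23 tested genes of glucose uptake, glycolysis and glycogen, 20 rose and 0 fell, where 13.1% of all rows rose. The other 3, PFKFB2, PFKFB4 and PGM2, had log2 fold changes of -0.10, 0.06 and 0.04. The list's median was 1.92 with TPM and 2.26 with size factors. SLC2A3, ALDOA and PYGL did not reach 1 TPM in 3 libraries and were not tested.

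SLC2A1, the glucose transporter GLUT1, had 657, 701 and 698 TPM at 1% O2, against 48.5, 48.3 and 42 TPM at 20% O2, and its mean was 14.8-fold higher at 1% O2 (log2 fold change 3.86 ± 0.069, adjusted p = 5.5e-07). GAPDH, which oxidises glyceraldehyde 3-phosphate, had 11440, 11680 and 12470 TPM at 1% O2, against 2165, 2168 and 2199 TPM at 20% O2 (log2 fold change 2.44 ± 0.036, adjusted p = 5.5e-07). Each library at 1% O2 lay far above each library at 20% O2 for both. TPI1, the triose isomerase, had 798, 819 and 782 TPM at 1% O2, against 173, 173 and 170.0 TPM at 20% O2, and PKM, the pyruvate kinase of proliferating cells, had 3271, 3349 and 3177 TPM at 1% O2, against 941, 960.1 and 953 TPM at 20% O2. Their log2 fold changes were 2.21 ± 0.037 and 1.78 ± 0.031, again with no overlap. ENO2, an enolase isoform best known from neurons, had 517, 484 and 523 TPM at 1% O2, against 30, 40 and 40.9 TPM at 20% O2 (log2 fold change 3.76 ± 0.12, adjusted p = 3.4e-06). ENO1, the ubiquitous isoform, had a log2 fold change of 1.55. PFKP, ALDOC, PGK1 and the glycogen enzymes GYS1 and GBE1 rose by 2.99, 2.84, 2.09, 2.98 and 2.54. These 5, ENO1 and the 3 genes that did not pass were named after their values were seen.

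**Figure D2:**
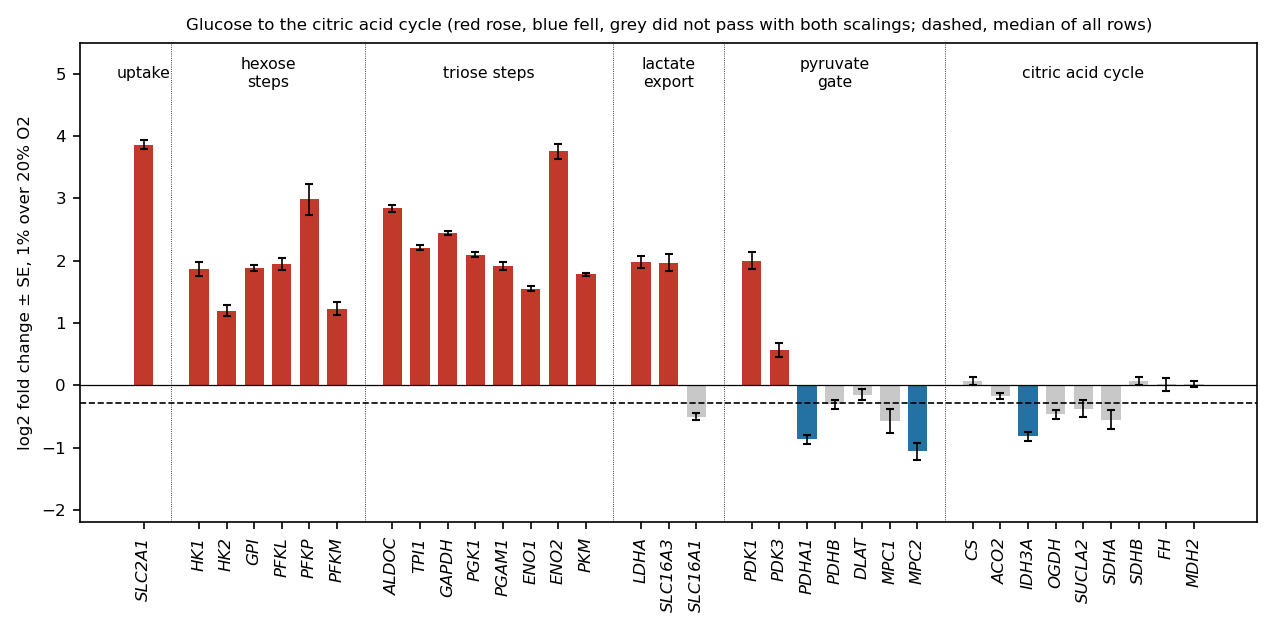
Log2 fold change at 1% over 20% O2 with limma's SE, for selected tested genes in the order of the route from glucose uptake to the citric acid cycle, in shNTC cells (n = 3 libraries each). The bars shown of uptake and glycolysis lie between 1.20 for HK2 and 3.86 for SLC2A1, and those shown of the citric acid cycle between -0.82 and 0.07. PFKFB2, PFKFB4, PGM2 and IDH3G are not drawn.

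Since reads of abundant genes can be shared with processed copies, rows named as copies were compared with their genes. Of 52 tested rows named as GAPDH copies, 46 were higher and 0 were lower at 1% O2, and their summed mean TPM was 5.55-fold higher, near the 5.45-fold of the GAPDH row. For TPI1 the ratios were 4.35 over 4 copies and 4.65 for the gene, and for PKM 3.55 over 4 copies and 3.43 for the gene. The levels of these genes are thus split over rows, and for these 3 the ratios of gene and copies lay close together. They lay farther apart for SRSF3, a splicing factor, at 0.425 over 5 copies and 0.279 for the gene. Copies of GAPDH alone summed to 41650 TPM at 1% O2, against 7509 TPM at 20% O2.

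Promoters are shown for 6 genes that rose, to show where the HIF core letters lie. Only genes taken by the naming rule (given under processing) that belong to the glycolysis, lactate or other HIF target lists were considered. The 6 with the smallest p among those that carry the letters were printed. The sequences are RefSeq mouse promoters (GRCm38.p6), from 250 bases before to 50 after the gene's start, read 5′ to 3′ on the gene's strand. Capitals mark ACGTG and GCGTG and their reverse complements CACGT and CACGC.
SLC2A1 (chr4:119108495-119108794, plus strand): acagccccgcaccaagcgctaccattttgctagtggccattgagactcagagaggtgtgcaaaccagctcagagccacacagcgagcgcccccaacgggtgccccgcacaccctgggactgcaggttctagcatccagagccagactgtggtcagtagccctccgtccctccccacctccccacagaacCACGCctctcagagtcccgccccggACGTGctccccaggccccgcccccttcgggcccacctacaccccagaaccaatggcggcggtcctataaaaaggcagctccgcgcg
GAPDH (chr6:125165724-125166023, minus strand): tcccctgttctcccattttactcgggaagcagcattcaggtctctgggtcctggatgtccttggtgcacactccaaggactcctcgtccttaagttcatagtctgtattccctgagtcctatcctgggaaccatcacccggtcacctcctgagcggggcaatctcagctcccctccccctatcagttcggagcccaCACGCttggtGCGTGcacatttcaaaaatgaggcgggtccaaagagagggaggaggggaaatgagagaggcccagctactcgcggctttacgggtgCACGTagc
PKM (chr9:59656977-59657276, plus strand): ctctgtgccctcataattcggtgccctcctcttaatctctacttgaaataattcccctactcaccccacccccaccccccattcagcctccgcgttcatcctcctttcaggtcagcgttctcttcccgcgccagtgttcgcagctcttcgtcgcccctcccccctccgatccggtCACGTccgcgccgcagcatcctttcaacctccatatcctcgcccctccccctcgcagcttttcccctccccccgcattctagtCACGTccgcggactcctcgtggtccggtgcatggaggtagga
ERO1A (chr14:45318523-45318822, minus strand): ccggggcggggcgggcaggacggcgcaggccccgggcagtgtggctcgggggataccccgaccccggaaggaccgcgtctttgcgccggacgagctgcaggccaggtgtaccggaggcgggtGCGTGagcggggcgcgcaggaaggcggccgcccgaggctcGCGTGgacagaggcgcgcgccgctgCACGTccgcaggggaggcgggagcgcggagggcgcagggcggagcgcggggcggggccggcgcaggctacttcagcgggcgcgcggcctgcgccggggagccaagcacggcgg
DDIT4 (chr10:59951721-59952020, minus strand): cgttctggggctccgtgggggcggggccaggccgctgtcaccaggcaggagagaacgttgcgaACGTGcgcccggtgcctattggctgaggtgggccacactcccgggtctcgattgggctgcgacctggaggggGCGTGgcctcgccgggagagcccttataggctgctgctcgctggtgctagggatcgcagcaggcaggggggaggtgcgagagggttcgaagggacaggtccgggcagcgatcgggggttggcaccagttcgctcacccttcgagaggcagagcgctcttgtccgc
P4HA2 (chr11:54100674-54100973, plus strand): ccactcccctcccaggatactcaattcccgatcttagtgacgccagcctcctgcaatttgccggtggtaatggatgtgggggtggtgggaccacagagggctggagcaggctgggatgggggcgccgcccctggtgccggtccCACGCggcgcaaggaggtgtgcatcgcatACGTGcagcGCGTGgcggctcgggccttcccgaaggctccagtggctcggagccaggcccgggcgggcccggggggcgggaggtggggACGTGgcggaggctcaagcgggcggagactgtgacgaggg

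The letters were common, so their presence alone does not mark a gene that responded. Both motifs were searched on both strands, and ACGTG also lies inside CACGTG, the E-box that MYC and the clock proteins are known to bind, which none of the 6 promoters holds. Of 32851 promoters of this length, 43.8% held ACGTG or GCGTG. Of 6667 tested genes with a promoter, 71.4% held the letters in at least 1 of their promoters, against 70.2% of the 295 genes that rose by at least 1 on the log2 scale and 69.6% of the 1062 that fell by at least 1. The 18 genes of the other HIF target list with a promoter all held them. So did 18 of 23 in the glycolysis list and 12 of 15 in the lactate list. The letters were also held by 22 of 25 genes of ribosome biogenesis, a list that fell. In cholesterol synthesis, a list that rose, 8 of 12 held them. The single listed promoter of TPI1 did not hold these letters in this window.

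At the branch from pyruvate, genes of lactate production and export rose and some of pyruvate entry into mitochondria fell. LDHA, which turns pyruvate into lactate, had 128, 128 and 121 TPM at 1% O2, against 33.9, 32.5 and 27.4 TPM at 20% O2 (log2 fold change 1.98 ± 0.09, adjusted p = 1.3e-05). SLC16A3, the lactate exporter MCT4, had 19.9, 21.4 and 18.4 TPM at 1% O2, against 3.7, 5.04 and 4.39 TPM at 20% O2 (log2 fold change 1.96 ± 0.13, adjusted p = 5.6e-05). PDK1, the kinase that switches off pyruvate dehydrogenase, had 13.6, 15 and 13.6 TPM at 1% O2, against 2.94, 2.37 and 3.01 TPM at 20% O2 (log2 fold change 2.00 ± 0.13, adjusted p = 4.7e-05). In each of these 3 genes the lowest library at 1% O2 was above the highest at 20% O2. CA12, a carbonic anhydrase that handles acid outside the cell, averaged 22.8 ± 3.09 TPM at 1% O2, against 3.68 ± 0.761 TPM at 20% O2, and rose by 2.35 on the log2 scale. PDHA1 and PDHX, subunits of pyruvate dehydrogenase, and MPC2, a subunit of the mitochondrial pyruvate carrier, had log2 fold changes of -0.86, -1.02 and -1.06 and fell, and were named after their values were seen. Of the 18 tested genes of this list 6 rose and 4 fell, against 13.1% and 22.5% of all rows. The part that fell was thus near the share of all rows.

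Enzymes of the citric acid cycle and subunits of the respiratory chain moved far less than glycolysis. Of 23 tested genes of the cycle and its feeders, 1 rose (IDH1) and 6 fell, against 13.1% and 22.5% of all rows, with a median of -0.37. The part that fell was near the share of all rows. IDH3G, a subunit of the NAD-dependent isocitrate dehydrogenase, had 97, 102 and 103 TPM at 1% O2, against 178, 180.4 and 184 TPM at 20% O2, and IDH3A of the same enzyme averaged 29.7 ± 1.74 TPM at 1% O2, against 53.2 ± 2.94 TPM at 20% O2. Their log2 fold changes were -0.84 ± 0.049 and -0.82 ± 0.079. GLUD1 and DLST, which feed and run the 2-oxoglutarate step, fell by 0.80 and 0.59. Of 25 tested nuclear subunits of the respiratory chain, 2 rose (NDUFA1 and NDUFS3) and 3 fell, CYC1 and ATP5PB of the ATP synthase stalk among them, and the median of -0.15 was above that of all rows. CYC1, the cytochrome c1 subunit of complex III, had 84.9, 82.2 and 80.8 TPM at 1% O2, against 189.7, 188 and 156 TPM at 20% O2 (log2 fold change -1.09 ± 0.084, adjusted p = 9.1e-05), with no overlap. ATP5F1B, the catalytic ATP synthase subunit, had a log2 fold change of -0.41 ± 0.026 that passed with TPM and not with size factors. IDH1, NDUFA1 and NDUFS3 were named after their values were seen.

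Genes that build mitochondria were lower in part. Of 22 tested mitochondrial ribosomal proteins 8 fell and 1 rose (MRPL45), and of 22 genes of import, folding and biogenesis 10 fell and 1 rose (HSPA9), where 22.5% of all rows fell. Both exceptions were named after their values were seen. HSPD1, the HSP60 chaperonin of the matrix, had 172, 171 and 166 TPM at 1% O2, against 505, 485 and 493 TPM at 20% O2 (log2 fold change -1.54 ± 0.04, adjusted p = 1.6e-06). TIMM9, a small chaperone of the intermembrane space, averaged 6.34 ± 1.44 TPM at 1% O2, against 32.8 ± 1.72 TPM at 20% O2, and MRPS22 averaged 4.84 ± 0.294 TPM at 1% O2, against 15.8 ± 0.375 TPM at 20% O2. All 3 libraries at 1% O2 were below all 3 at 20% O2 in each. TIMM23, CLPP, MRPL13, MRPL3 and MRPL1 fell by 0.79, 1.14, 1.17, 1.55 and 1.71.

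Most other known HIF targets rose: of 23 tested, 18 rose and 0 fell, with a median of 1.97 that was close to that of glycolysis. BNIP3, which tags mitochondria for removal, had 123, 122 and 107 TPM at 1% O2, against 6.25, 4.71 and 4.76 TPM at 20% O2, 22.4-fold higher at 1% O2 (log2 fold change 4.25 ± 0.12, adjusted p = 2.3e-06). Its paralogue BNIP3L had 375, 374 and 384 TPM at 1% O2, against 95.8, 92.4 and 93.2 TPM at 20% O2 (log2 fold change 2.00 ± 0.042, adjusted p = 7.3e-07). DDIT4, or REDD1, an inhibitor of mTORC1, had 559.5, 544 and 607 TPM at 1% O2, against 135, 124 and 123 TPM at 20% O2 (log2 fold change 2.15 ± 0.062, adjusted p = 2.3e-06). No library at 1% O2 overlapped the 20% O2 range in these 3. The 3 tested rows named as BNIP3 copies were all higher, and their sum was 18-fold higher. MGARP, a mitochondrial protein known to be induced by hypoxia, had 9.49, 16.3 and 11.5 TPM at 1% O2 from 86 reads and was listed at 0 in all 3 libraries at 20% O2. In the wider list of mitophagy, autophagy and cell death 4 of 23 tested genes rose and 2 fell, against 13.1% and 22.5% of all rows. BCL2L1, which blocks cell death at mitochondria, rose by 1.05 ± 0.06, and GABARAPL1, an autophagy protein, fell by 0.90.

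**Figure D3:**
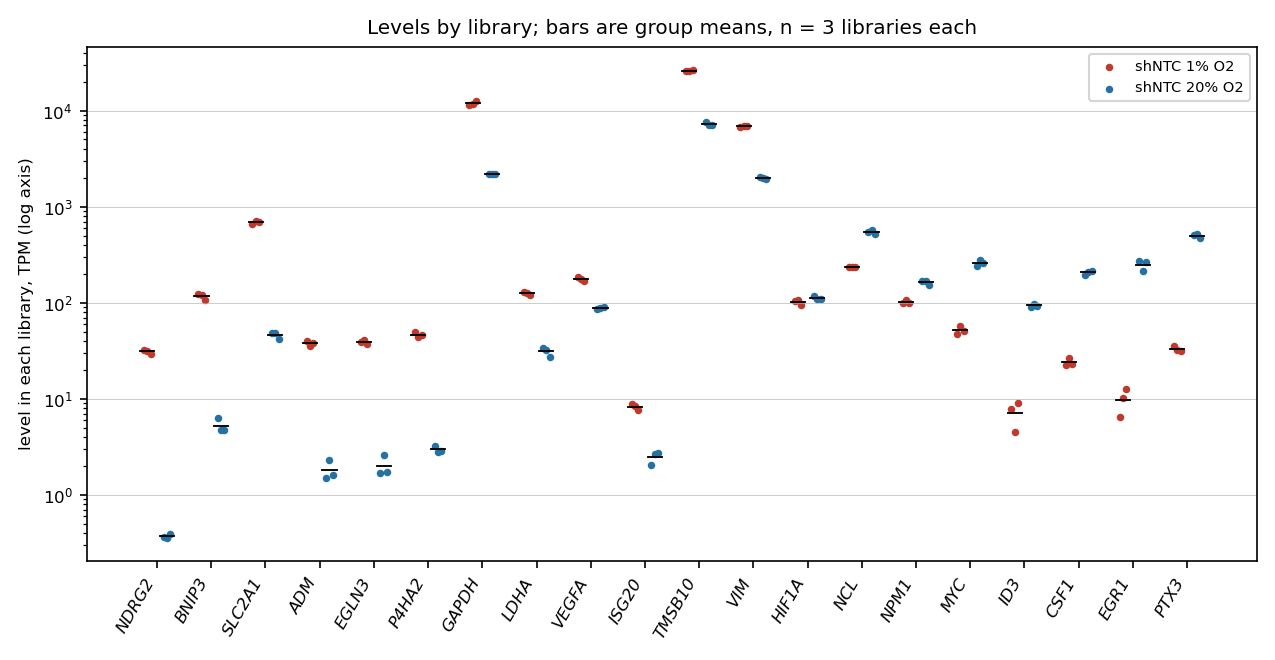
TPM in each shNTC library (log axis) for 20 genes, with 1% O2 in red on the left and 20% O2 in blue on the right of each pair and bars at the group means (n = 3 libraries each). The groups are apart for every gene shown, and closest for HIF1A.

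Secreted and vasoactive factors moved in both directions: of 16 tested, 8 rose and 5 fell, against 13.1% and 22.5% of all rows. NOS2, the inducible nitric oxide synthase, had 20.3, 20.5 and 22.4 TPM at 1% O2, against 0, 0 and 0.169 TPM at 20% O2, from 516 and 1 reads, and its fitted log2 fold change depends on the pseudocount (log2 fold change 4.39 ± 0.15, adjusted p = 4e-06). ADM, the vasodilator adrenomedullin, had 40.2, 35.2 and 38.3 TPM at 1% O2, against 1.49, 2.33 and 1.6 TPM at 20% O2 (log2 fold change 3.80 ± 0.15, adjusted p = 7.1e-06). Both were close to 0 in the 20% O2 libraries and well above it in each 1% O2 library. VEGFA, the main angiogenic growth factor, had 184, 175 and 169 TPM at 1% O2, against 86.6, 88.2 and 90 TPM at 20% O2, a smaller rise of 0.99 ± 0.053 on the log2 scale, and was named after its values were seen. ANGPT1, a ligand of the endothelial receptor TIE2, went the other way and fell to 0.552 ± 0.276 TPM at 1% O2, against 24.5 ± 0.995 TPM at 20% O2 (log2 fold change -4.05 ± 0.17, adjusted p = 9.4e-06). The other 4 that fell, VEGFC, NRP1, NT5E and THBS2, had log2 fold changes of -1.50, -2.43, -1.30 and -1.11, and they were named after their values were seen. HMOX1, haem oxygenase, averaged 69.2 ± 4.89 TPM at 1% O2, against 21.2 ± 1.58 TPM at 20% O2.

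Enzymes that hydroxylate and crosslink collagen moved in both directions. P4HA2, a prolyl 4-hydroxylase of collagen, had 49.1, 43.9 and 46.1 TPM at 1% O2, against 3.26, 2.79 and 2.89 TPM at 20% O2 (log2 fold change 3.57 ± 0.10, adjusted p = 2.3e-06), and P4HA1 had 216, 207 and 193 TPM at 1% O2, against 75.8, 70.9 and 64.1 TPM at 20% O2 (log2 fold change 1.54 ± 0.078, adjusted p = 2e-05). PLOD2, the telopeptide lysyl hydroxylase, averaged 80.8 ± 7.2 TPM at 1% O2, against 19.9 ± 1.41 TPM at 20% O2, and P4HB, the beta subunit of the prolyl hydroxylase, averaged 298 ± 3.81 TPM at 1% O2, against 69.4 ± 4.55 TPM at 20% O2. No group overlapped in these 4. Of the 15 tested genes of this list 7 rose and 6 fell, against 13.1% and 22.5% of all rows. Among the other 3 that rose was LOX, a lysyl oxidase, at 1.55, and among the 6 that fell were P4HA3 and LOXL4, relatives of P4HA2 and LOX, at -1.78 and -1.63. Of 17 tested matrix genes, many of them substrates of these enzymes, 3 rose (CCN1, CCN2 and LAMC1) and 7 fell. COL3A1, a fibrillar collagen, had 0.672, 0.938 and 0.758 TPM at 1% O2, against 10.2, 11.2 and 12.8 TPM at 20% O2, and FN1, fibronectin, had 378, 395 and 328 TPM at 1% O2, against 995, 1006 and 1036 TPM at 20% O2. Their log2 fold changes were -2.79 ± 0.16 and -1.47 ± 0.071. The proteoglycan VCAN and the laminin chain LAMB1 fell by 1.70 and 0.89. Among 15 proteases, inhibitors and integrins, MMP2, the gelatinase A, fell to 4.75 ± 0.513 TPM at 1% O2, against 26.7 ± 0.893 TPM at 20% O2, while PLAU, the urokinase, and the integrins ITGA5 and ITGA6 rose by 2.00, 1.10 and 1.98. LOX, P4HA3, LOXL4, CCN1, CCN2 and LAMC1 were named after their values were seen.

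Most genes of protein folding in the endoplasmic reticulum rose: of 25 tested, 17 rose and 3 fell, against 13.1% and 22.5% of all rows. The median of the list was 0.77. ERO1A, the oxidase that recharges protein disulphide isomerases and is a known HIF target, had 328, 334 and 336 TPM at 1% O2, against 32.5, 29.2 and 31.3 TPM at 20% O2 (log2 fold change 3.38 ± 0.057, adjusted p = 5.5e-07). SDF2L1, part of the BiP chaperone complex, had 96.3, 99.5 and 115 TPM at 1% O2, against 14.4, 8.31 and 7.74 TPM at 20% O2 (log2 fold change 3.27 ± 0.22, adjusted p = 5.2e-05). The isomerase PDIA6 averaged 405 ± 12.8 TPM at 1% O2, against 188 ± 5.14 TPM at 20% O2 and the secreted chaperone MANF averaged 572 ± 37.9 TPM at 1% O2, against 242 ± 0.988 TPM at 20% O2. None of these 4 overlapped between the oxygen levels. Against this, ERN1, the sensor IRE1, had a log2 fold change of -2.04 and fell, and XBP1, its target, had 54.7, 55.7 and 46.5 TPM at 1% O2 and 80.4, 68.7 and 82.9 TPM at 20% O2 and passed only with TPM. Both were named after their values were seen.

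Chaperones of the cytosol divided. Of 25 tested, 9 rose and 11 fell, against 13.1% and 22.5% of all rows. CRYAB, the small heat shock protein alpha-B crystallin, had 454, 433 and 531 TPM at 1% O2, against 65.7, 62.3 and 64.5 TPM at 20% O2 (log2 fold change 2.85 ± 0.082, adjusted p = 2.3e-06), and HSP90AB1 rose by 0.99 ± 0.041. CCT4, a subunit of the TRiC chaperonin that folds actin and tubulin, had 318, 318 and 330.3 TPM at 1% O2, against 870.0, 863 and 869.7 TPM at 20% O2 (log2 fold change -1.43 ± 0.034, adjusted p = 1.1e-06), and CCT6A of the same ring fell by 1.37. Both pairs were separated by oxygen level in every library.

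All 19 tested genes of cholesterol synthesis and its control rose, with a median of 1.25 with TPM and 1.55 with size factors. FDPS, the farnesyl diphosphate synthase, had 111, 113 and 111 TPM at 1% O2, against 27.2, 24.9 and 24.9 TPM at 20% O2 (log2 fold change 2.08 ± 0.064, adjusted p = 3e-06). HMGCS1, an early enzyme of the pathway, had 72.2, 76.9 and 74.7 TPM at 1% O2, against 26.2, 22.3 and 20.6 TPM at 20% O2 (log2 fold change 1.66 ± 0.099, adjusted p = 3.3e-05). The libraries of the oxygen levels did not overlap in either gene. Several steps of this pathway, the oxidation of lanosterol among them, need oxygen. In fatty acid synthesis and lipid storage 7 of 21 tested genes rose and 3 fell, against 13.1% and 22.5% of all rows. SCD, the desaturase that also needs oxygen, had 56.8, 64.9 and 59.7 TPM at 1% O2, against 29.6, 24.3 and 29.6 TPM at 20% O2, and ACSS2, which makes acetyl-CoA from acetate, had 75.1, 80.8 and 76.1 TPM at 1% O2, against 23.5, 21.6 and 24.6 TPM at 20% O2. They rose by 1.10 and 1.70, while ACACA, the first committed enzyme of fatty acid synthesis, and ELOVL1, an elongase of long chains, fell by 0.69 and 0.72.

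Nearly all genes of ribosome production fell: of 29 tested genes of ribosome biogenesis 28 fell and 0 rose, with a median of -1.86 with TPM and -1.54 with size factors, where 22.5% of all rows fell. The remaining gene, POLR1C, had a log2 fold change of -0.16 and was named after its values were seen. NOP56, a core protein of the particles that methylate ribosomal RNA, had 41.9, 49.9 and 47.6 TPM at 1% O2, against 340.1, 381 and 365 TPM at 20% O2. NOP58, its partner, had 74.5, 78.3 and 73.5 TPM at 1% O2, against 558, 537 and 516 TPM at 20% O2. FBL, fibrillarin, the methyltransferase of the same particle, had 104, 103 and 97.3 TPM at 1% O2, against 315, 338 and 333 TPM at 20% O2. Every library at 1% O2 was below every library at 20% O2 in these 3. Their log2 fold changes were -2.94 ± 0.081, -2.81 ± 0.051 and -1.68 ± 0.052, and NOLC1, a nucleolar chaperone, fell by 2.07.

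MYC, the transcription factor known to drive ribosome and nucleotide production, had 46.8, 56.9 and 51.2 TPM at 1% O2, against 239.6, 278 and 262 TPM at 20% O2 (log2 fold change -2.31 ± 0.09, adjusted p = 7.5e-06). MXI1, which opposes MYC at its sites and is a known HIF target, had 154, 159 and 162 TPM at 1% O2, against 29.1, 26.7 and 32.3 TPM at 20% O2 (log2 fold change 2.40 ± 0.08, adjusted p = 4e-06). ODC1, the first enzyme of polyamine synthesis and a known MYC target, averaged 105 ± 15.3 TPM at 1% O2, against 302 ± 15.3 TPM at 20% O2. Thus MYC and ODC1 were lower and MXI1 higher in all 3 libraries at 1% O2 than in any at 20% O2.

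The ribosomal proteins themselves did not follow the biogenesis factors. Of 35 tested, 4 rose and 3 fell with both scalings, against 13.1% and 22.5% of all rows. The rest depended on the scaling. Among all 35, 19 were lower and 4 higher with TPM, and 20 were higher and 3 lower with size factors. RPS12 had 8372, 8496 and 8512 TPM at 1% O2, against 11710, 12100 and 12310 TPM at 20% O2, and RPL11 had 2460, 2430 and 2452 TPM at 1% O2, against 1756, 1821 and 1810 TPM at 20% O2. RPS12 had a log2 fold change of -0.51 and fell, RPL11 rose by 0.45, and RPS12 was the most abundant row in each library at 20% O2. Rows named as copies of ribosomal protein genes were numerous (793 tested), so reads of these genes may be split among rows.

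Factors for nucleotides, amino acids and translation were lower. Of 29 tested genes of nucleotide synthesis and one-carbon metabolism 21 fell and 1 rose, against 22.5% and 13.1% of all rows. The 1 that rose, MTHFD1L, was named after its values were seen. ATIC, which completes the purine ring, had 23.6, 21.8 and 19.4 TPM at 1% O2, against 119, 111 and 120.3 TPM at 20% O2 (log2 fold change -2.39 ± 0.087, adjusted p = 6e-06). PRPS1, which makes the ribose donor, had 55.6, 56.3 and 56.1 TPM at 1% O2, against 171, 170.1 and 182 TPM at 20% O2, and IMPDH2, at the branch to guanine nucleotides, had 82.5, 76.7 and 74.8 TPM at 1% O2, against 203, 198 and 209 TPM at 20% O2. ADSS2, at the branch to adenine nucleotides, averaged 123 ± 4.99 TPM at 1% O2, against 228 ± 8.61 TPM at 20% O2. The groups did not overlap in these 4. Of 30 translation factors and tRNA synthetases 15 fell and 2 rose, against the same shares of all rows. The 2 that rose were EEF1A1 and EIF4EBP1, named after their values were seen. FARSB, TARS1, YARS1 and EPRS1, synthetases for phenylalanine, threonine, tyrosine and for glutamate with proline, fell by 1.64, 1.50, 1.04 and 0.94.

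Genes of the amino acid response fell with its central factor. Of 21 tested, 14 fell and 1 rose (EIF2AK3, the kinase PERK, named after its values were seen), with a median of -1.05. Among all rows 22.5% fell and 13.1% rose. ATF4, the transcription factor of this response, had 309, 309 and 282 TPM at 1% O2, against 565, 595 and 607 TPM at 20% O2 (log2 fold change -0.97 ± 0.053, adjusted p = 2.5e-05). ATF5, a related factor, had 18.9, 22.4 and 18.1 TPM at 1% O2, against 158, 167 and 162 TPM at 20% O2 (log2 fold change -2.98 ± 0.09, adjusted p = 2.8e-06). CHAC1, a glutathione-degrading ATF4 target, averaged 59.2 ± 5.2 TPM at 1% O2, against 223 ± 6.81 TPM at 20% O2, and SLC7A5, the transporter of large neutral amino acids, averaged 33.6 ± 2.26 TPM at 1% O2, against 109 ± 4.91 TPM at 20% O2. In all 4 genes the libraries of the oxygen levels were apart.

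Splicing factors were lower, with 23 of 31 tested genes fallen and 4 risen, against 22.5% and 13.1% of all rows. SRSF1, a serine- and arginine-rich splicing factor, had 31.4, 33 and 34.6 TPM at 1% O2, against 135, 131 and 134 TPM at 20% O2. SRSF3, of the same family, had 61.4, 60.1 and 62 TPM at 1% O2, against 215, 223 and 219 TPM at 20% O2. TRA2B, a related splicing activator, averaged 35.3 ± 1.59 TPM at 1% O2, against 119 ± 0.924 TPM at 20% O2, and SF3B3 of the U2 particle averaged 58.3 ± 1.71 TPM at 1% O2, against 167 ± 1.89 TPM at 20% O2. The 4 genes were lower in each library at 1% O2. The 4 that rose were SF3B1, the cold-inducible RBM3, CLK1 and HNRNPA1, at 0.57, 0.52, 0.30 and 0.13, named after their values were seen. In RNA decay 12 of 32 tested genes fell and 0 rose, against the same shares of all rows. DIS3, the catalytic subunit of the nuclear exosome, had 4.75, 7.25 and 7.32 TPM at 1% O2, against 32.5, 36.2 and 33.6 TPM at 20% O2 (log2 fold change -2.26 ± 0.16, adjusted p = 7e-05), and its core subunits EXOSC1 and EXOSC2 fell by 1.81 and 1.92. XRN2, the nuclear 5′ to 3′ exonuclease, fell by 0.81.

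Genes of DNA replication were lower in part: of 29 tested, 14 fell and 1 rose, against 22.5% and 13.1% of all rows. The 1 that rose, POLE2, was named after its values were seen. PRIM1, the DNA primase, had 1.06, 1.37 and 1.12 TPM at 1% O2, against 15.5, 13.5 and 12 TPM at 20% O2, and POLA1, the polymerase bound to it, had 5.7, 5.21 and 5.3 TPM at 1% O2, against 23.8, 26.6 and 28.7 TPM at 20% O2. Their log2 fold changes were -2.75 ± 0.15 and -2.09 ± 0.11. MCM2, of the replicative helicase, averaged 30.1 ± 3.02 TPM at 1% O2, against 69.6 ± 3.73 TPM at 20% O2, and FEN1, which trims Okazaki fragments, averaged 16.3 ± 1.92 TPM at 1% O2, against 40.6 ± 1.55 TPM at 20% O2. In each of the 4 genes the highest library at 1% O2 was below the lowest at 20% O2. PCNA, named after its values were seen, had a log2 fold change of -0.10 that did not pass. Of 26 tested mitotic genes 9 fell and 0 rose, against the same 22.5% and 13.1% of all rows. Among the 9 were KIF11, a spindle motor (-1.55 ± 0.13), CDC20, an activator of the anaphase complex (-1.12 ± 0.093), SMC4 (-0.87 ± 0.075) and TOP2A (-0.79 ± 0.077).

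In the list of cell cycle inhibitors and p53 targets, which also holds cyclins, 3 of 20 tested genes rose and 5 fell. These shares were near the 13.1% and 22.5% of all rows, and the median log2 fold change was -0.32. CDKN1A, PMAIP1, ZMAT3, TIGAR, FAS and CCND2 of this list did not reach 1 TPM in 3 libraries and were not tested. CCND1, cyclin D1, had 176, 189 and 165 TPM at 1% O2, against 95.4, 95.4 and 85.3 TPM at 20% O2 and rose by 0.93. GADD45A, a stress protein that p53 and ATF4 are known to induce, had 438, 429.8 and 464 TPM at 1% O2, against 1161, 1232 and 1210 TPM at 20% O2 (log2 fold change -1.43 ± 0.044, adjusted p = 3e-06). CDKN2C, an inhibitor of CDK4 and CDK6, fell by 0.61 and the kinase PLK2 fell by 0.85.

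Many genes of the actin cytoskeleton were higher: of 28 tested actin and thymosin genes 17 rose and 1 fell, CALD1, named after its values were seen. TMSB10, a thymosin that binds actin monomers, had 25630, 25480 and 26170 TPM at 1% O2, against 7608, 7140 and 7058 TPM at 20% O2 (log2 fold change 1.83 ± 0.033, adjusted p = 5.5e-07), and it was the most abundant row in each library at 1% O2. CAPG, which caps filaments, had 1388, 1402 and 1419 TPM at 1% O2, against 550.3, 556 and 542 TPM at 20% O2. GSN, gelsolin, which severs them, had 274, 288 and 257 TPM at 1% O2, against 89.1, 95.2 and 98 TPM at 20% O2. The 3 genes were apart between the oxygen levels, and TPM2, a tropomyosin, rose by 1.45. VIM, the mesenchymal filament protein, had 6807, 6893 and 6853 TPM at 1% O2, against 2011, 1975 and 1952 TPM at 20% O2 (log2 fold change 1.79 ± 0.024, adjusted p = 5.5e-07). KRT19, a keratin of epithelia, had 67.9, 61.8 and 50.4 TPM at 1% O2, against 3.27, 3.48 and 3.19 TPM at 20% O2. KRT8, another, had 119, 121 and 127 TPM at 1% O2, against 38.6, 30.9 and 36.6 TPM at 20% O2. Keratins and vimentin were thus both higher at 1% O2, while ZEB2, a repressor of epithelial genes, averaged 9 ± 0.689 TPM at 1% O2, against 23.5 ± 1.98 TPM at 20% O2. Of the 16 tested markers of this list 8 rose and 3 fell, against 13.1% and 22.5% of all rows. CDH1 and EPCAM, defining markers of epithelium, were at 0 and at most 0.602 TPM and were not tested, while the keratins KRT7, KRT8, KRT14, KRT18 and KRT19 were tested and rose. The epithelial OCLN, CLDN3 and CLDN7 were also at 0. Mesenchymal members of the list were likewise not tested, with CDH2 at 0, TAGLN at most 0.293 TPM and FSTL1 at most 0.176 TPM. KRT7, KRT14 and KRT18 were named after their values were seen.

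Of 25 tested members of the TGF-beta family 8 fell and 1 rose (TGFB1, named after its values were seen), where 22.5% of all rows fell, and the median log2 fold change was -0.50 against -0.29 for all rows. ID3, an inhibitor of basic helix-loop-helix factors and a known target of bone morphogenetic proteins, had 7.76, 4.56 and 8.98 TPM at 1% O2, against 91.3, 97.3 and 93.1 TPM at 20% O2 (log2 fold change -3.59 ± 0.21, adjusted p = 3.2e-05). BMP4, such a morphogenetic protein, had 49.7, 47.4 and 39.7 TPM at 1% O2, against 231, 245 and 220.2 TPM at 20% O2 (log2 fold change -2.33 ± 0.095, adjusted p = 8.6e-06). TGFB3 and the latency protein LTBP1 fell by 2.17 and 1.29. None of the 4 overlapped.

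Immediate early genes split. EGR1, a zinc finger factor that growth signals induce, had 6.44, 10.3 and 12.7 TPM at 1% O2, against 271, 213 and 262 TPM at 20% O2 (log2 fold change -4.57 ± 0.23, adjusted p = 1.7e-05), the lowest log2 fold change of the named genes. NAB2, which EGR1 is known to induce and which represses it, had 24, 24.9 and 28.9 TPM at 1% O2, against 110.0, 99.4 and 109 TPM at 20% O2, and JUNB had 195, 219.8 and 215 TPM at 1% O2, against 566, 574 and 585 TPM at 20% O2. In contrast IER3 had 322, 339.8 and 298 TPM at 1% O2, against 31.8, 39.1 and 38.1 TPM at 20% O2 (log2 fold change 3.11 ± 0.094, adjusted p = 2.8e-06). Groups did not overlap in the 4 genes. Of 29 tested genes of this list 7 rose and 11 fell, against 13.1% and 22.5% of all rows. BHLHE40, a repressor of the clock and known HIF target, had 175, 204 and 220.1 TPM at 1% O2, against 33.1, 38.9 and 40.3 TPM at 20% O2. Its paralogue BHLHE41 had 38.9, 36.2 and 39.2 TPM at 1% O2, against 4.86, 4.39 and 3.67 TPM at 20% O2. Of 16 tested clock genes 4 rose and 4 fell, against 13.1% and 22.5% of all rows. ARNTL, or BMAL1, the activator they oppose, fell to 9.83 ± 1.42 TPM at 1% O2, against 35.9 ± 1.8 TPM at 20% O2, and NR1D1, a repressor of ARNTL, rose to 94.2 ± 13.6 TPM at 1% O2, against 27.5 ± 1.9 TPM at 20% O2.

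ISG20, named in the labels for the knockdown of the other subclone, rose in shNTC cells. It had 8.81, 8.44 and 7.59 TPM at 1% O2, against 2.03, 2.65 and 2.7 TPM at 20% O2, from 334 and 75 reads, a 3.37-fold higher mean (log2 fold change 1.43 ± 0.15, adjusted p = 0.00032), and the libraries of the oxygen levels did not overlap. The interferon list as a whole did not follow: of 17 tested, 2 rose (ISG20 and DHX58) and 8 fell, against 13.1% and 22.5% of all rows. The other 21 listed genes were not tested. IFIH1, the RNA sensor MDA5, had 1.98, 2.78 and 2.51 TPM at 1% O2, against 8.17, 12.5 and 11.6 TPM at 20% O2, and ADAR, the RNA-editing deaminase, had 5.09, 6.18 and 5.18 TPM at 1% O2, against 13.9, 12.4 and 14 TPM at 20% O2. Their log2 fold changes were -1.76 ± 0.19 and -1.16 ± 0.12, and SAMHD1, a nucleotide hydrolase, fell by 1.36. DHX58 was named after its values were seen.

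In antigen presentation and the proteasome 7 of 27 tested genes rose and 11 fell, against 13.1% and 22.5% of all rows. PSME3, a proteasome activator, had 51.9, 48.9 and 48.3 TPM at 1% O2, against 193, 205 and 199 TPM at 20% O2 (log2 fold change -1.98 ± 0.056, adjusted p = 2.2e-06), and the ATPase subunits PSMC2 and PSMC4 fell by 1.13 and 0.96, while CALR rose by 0.77. Of 12 tested cytokines and immune ligands 3 rose and 4 fell, against the same shares of all rows, and 29 listed ones were not tested. CSF1, the growth factor of macrophages, had 22.8, 26.8 and 23 TPM at 1% O2, against 195, 208 and 216 TPM at 20% O2 (log2 fold change -3.05 ± 0.083, adjusted p = 2e-06). MIF, the macrophage inhibitory factor and a known HIF target, had 1872, 1828 and 1823 TPM at 1% O2, against 986, 1054 and 990.0 TPM at 20% O2, and PTGES, the prostaglandin E synthase, had 16.6, 22.7 and 14.6 TPM at 1% O2, against 2.57, 3.22 and 1.97 TPM at 20% O2. MIF and PTGES rose by 0.87 and 2.39 and SPP1, osteopontin, fell by 0.95. Of 32 tested genes of the NRF2 response, glutathione and iron 12 rose and 6 fell, where 13.1% and 22.5% of all rows did. FTH1, the ferritin heavy chain, rose to 3000 ± 207 TPM at 1% O2, against 1471 ± 40.1 TPM at 20% O2. The peroxidase PRDX5 rose to 413 ± 0.83 TPM at 1% O2, against 178 ± 11.7 TPM at 20% O2. Catalase, CAT, rose to 72.5 ± 1.4 TPM at 1% O2, against 24.5 ± 2.41 TPM at 20% O2.

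Genes outside these lists also stood among those with the largest changes. The 12 highest log2 fold changes taken by the naming rule included NDRG2, of the N-myc downstream-regulated family, with 32.1, 31.7 and 29.6 TPM at 1% O2, against 0.367, 0.359 and 0.395 TPM at 20% O2 (log2 fold change 4.55 ± 0.12, adjusted p = 1.6e-06), the highest of the 12. UNC13A, a priming factor of synaptic vesicles, had 22.2, 27 and 29.6 TPM at 1% O2, against 0.31, 0.545 and 0.533 TPM at 20% O2 (log2 fold change 4.22 ± 0.16, adjusted p = 6.8e-06). Among the 12 lowest, OGN, a small proteoglycan, had 5.53, 6.91 and 4.3 TPM at 1% O2, against 179, 138 and 141 TPM at 20% O2 (log2 fold change -4.55 ± 0.17, adjusted p = 6.6e-06). RGS2, which turns off Gq signalling, had 0.725, 0.467 and 0.613 TPM at 1% O2, against 34.5, 33.4 and 36.8 TPM at 20% O2, and SLC24A3, a sodium, calcium and potassium exchanger, had 2.7, 3.73 and 3.26 TPM at 1% O2, against 88.5, 81.8 and 88.2 TPM at 20% O2. PTX3, a secreted pentraxin of innate immunity, had 35.1, 32.6 and 31.2 TPM at 1% O2, against 505, 516 and 467 TPM at 20% O2 (log2 fold change -3.87 ± 0.066, adjusted p = 5.5e-07). ENPP2, or autotaxin, which makes lysophosphatidic acid, had 3.08, 2.03 and 3.61 TPM at 1% O2, against 45.3, 41.4 and 38.4 TPM at 20% O2, and LPAR4, a receptor for it, had 0.487, 0.783 and 0.411 TPM at 1% O2, against 12.5, 8.05 and 14.4 TPM at 20% O2. The rule took only genes whose libraries did not overlap between the oxygen levels, so the separation of these 8 genes is a condition of their choice. The same holds for the others of the 12 highest and 12 lowest, given with their lists above. The rule passed over 3 rows among the highest and 1 among the lowest that carry no mouse symbol.

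**Figure D4:**
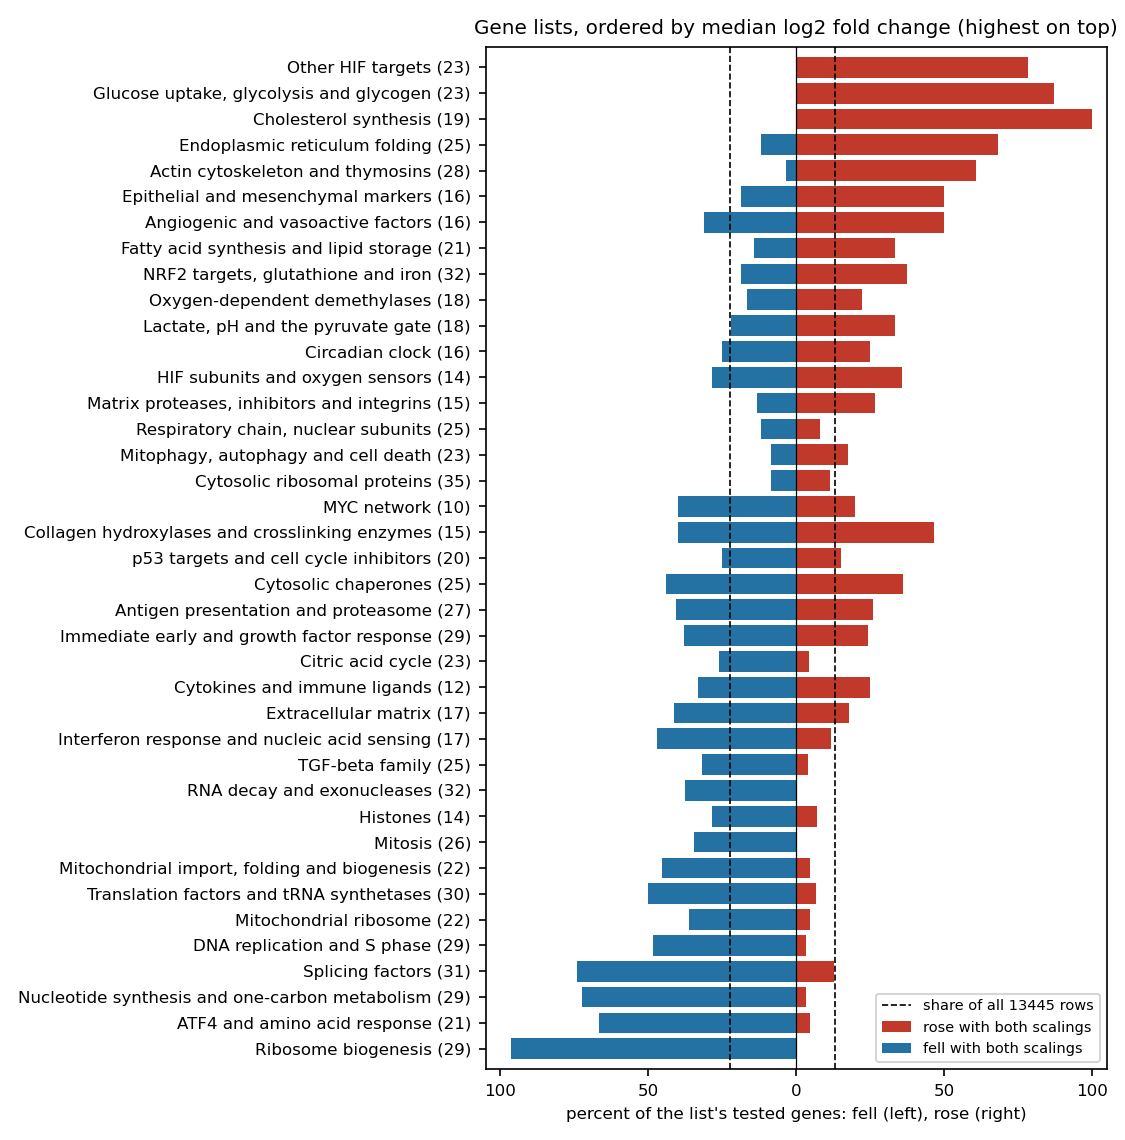
Share of each list's tested genes that fell (blue, left) and rose (red, right) with both scalings at 1% over 20% O2 in shNTC cells, for lists with at least 10 tested genes (number in brackets), ordered by median log2 fold change. Dashed lines are the shares of all 13445 rows, 22.5% fallen and 13.1% risen, and ribosome biogenesis at the bottom and cholesterol synthesis near the top lie farthest from them.

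Most markers of other cell types were at 0, which may also be reads that did not align to the human gene. Of 17 leucocyte markers 15 were at 0 in all 6 libraries, PTPRC (CD45) among them, and their summed level was 2.01 to 3.5 TPM at 1% O2, against 0.312 to 0.715 TPM at 20% O2. CORO1A stayed under the minimum, and the other, CSF1R, the receptor of CSF1, had 2.75, 1.7 and 3.23 TPM at 1% O2, against 0.135, 0 and 0 TPM at 20% O2, from 72 and 1 reads. Of 15 endothelial and fibroblast markers 10 were at 0 in all 6 libraries, PECAM1 and CDH5 among them, and the summed level was 2.68 to 4.91 TPM at 1% O2, against 18.4 to 21.4 TPM at 20% O2. The 3 tested were PDGFRA, PDGFRB and COL3A1, and their log2 fold changes were 0.90 ± 0.24, -2.04 ± 0.17 and -2.79 ± 0.16.

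The same oxygen contrast was available in shISG20 cells, from other libraries with no sample in common. For 1 of them, replicate 3 at 20% O2, the treatment label reads 484 hours; it was used as labelled for its oxygen level. ISG20 had 0.413, 0.595 and 0.69 TPM at 1% O2, against 0.215, 0.135 and 0.323 TPM at 20% O2 in shISG20 cells, below its level in each shNTC library at the same oxygen. In shISG20 cells 1926 of 13355 tested rows (14.4%) were higher and 5874 (44%) lower at 1% O2, 58.4% in either direction. Of 1731 rows higher in shNTC cells and tested in both, 1298 (75.0%) were higher in shISG20 cells and 27 lower, while these make up 68.6% of the 1893 rows higher in shISG20 cells. Of 5177 rows lower in shNTC cells 4382 (84.6%) were lower in shISG20 cells and 26 higher, which make up 76.0% of the 5766 lower there. Across 12940 rows the log2 fold changes had a Pearson correlation of 0.825, given as a description, since rows are not independent and all libraries share 1 pipeline.

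**Figure D5:**
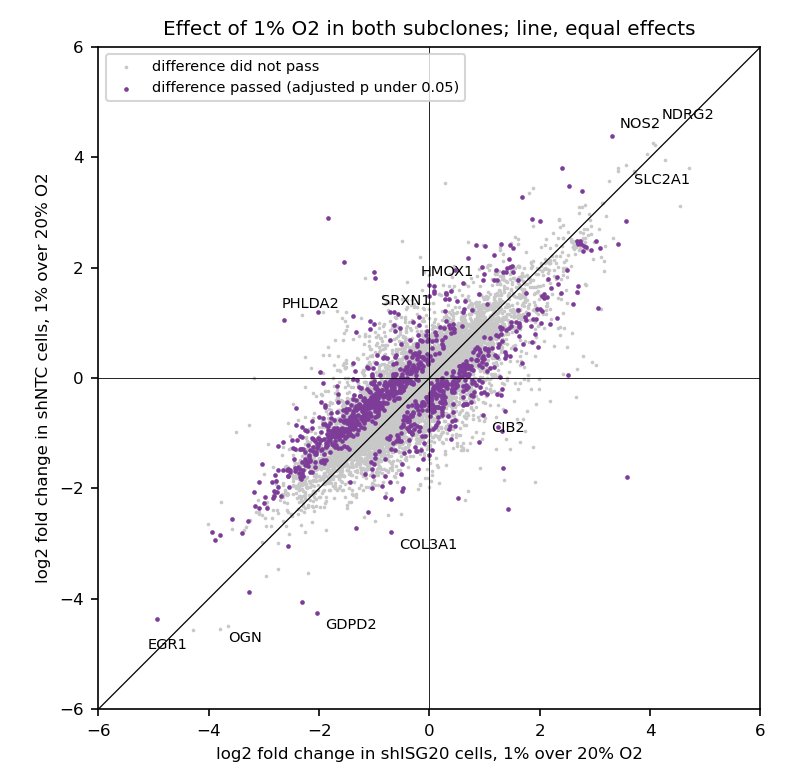
Log2 fold change at 1% over 20% O2 in shNTC cells (vertical) and in shISG20 cells (horizontal) for the 13445 rows tested in shNTC cells (3 libraries per group), with the line of equal effects. Rows whose difference passed are purple, and most rows lie near the line, with PHLDA2 and SRXN1 above it and GDPD2 and COL3A1 below it.

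The difference of the effects, shNTC minus shISG20, was tested in a fit of all 12 libraries, and 628 rows (4.67%) were higher and 386 (2.87%) lower (7.54% in either direction), which makes 61.9% of the calls higher. With size factors 479 were higher and 599 lower, 44.4% higher, and the median difference of all rows with TPM was 0.08. Of 67 reported named genes with a difference that passed with TPM, 64 also passed in the same direction with size factors. ISG20 itself was among them, with a log2 fold change of 1.43 ± 0.15 in shNTC cells and 0.35 ± 0.16 in shISG20 cells (difference 1.07 ± 0.22, adjusted p = 0.017). In shISG20 cells its row was under 1 TPM in every library, from 19 and 7 reads at 1% and 20% O2. The size of this difference therefore depends on the pseudocount. HMOX1 had a log2 fold change of 1.66 ± 0.089 in shNTC cells and 0.08 ± 0.099 in shISG20 cells (difference 1.59 ± 0.13, adjusted p = 0.00039). PMM1, a phosphomannomutase, had log2 fold changes of opposite sign, 1.19 ± 0.088 in shNTC cells and -0.64 ± 0.076 in shISG20 cells (adjusted p of the difference 7.2e-05). PHLDA2, an imprinted growth regulator, and SRXN1, the sulphiredoxin, also differed, by 2.52 ± 0.51 and 1.74 ± 0.32.

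Several genes that fell in shNTC cells had a still lower fold change in shISG20 cells. MYC had a log2 fold change of -2.31 ± 0.09 in shNTC cells and -3.17 ± 0.10 in shISG20 cells (difference 0.86 ± 0.14, adjusted p = 0.0065), and NOP56 had -2.94 ± 0.081 and -3.88 ± 0.053 (difference 0.95 ± 0.099, adjusted p = 0.00095). FEN1 had -1.27 ± 0.10 and -2.47 ± 0.17 (adjusted p of the difference 0.0073). The rise of HMGCS1 was smaller in shNTC cells, 1.66 ± 0.099 against 2.70 ± 0.14 (adjusted p of the difference 0.0069). Some matrix genes showed the reverse order, with differences of -0.67 ± 0.11 for FN1 and -0.99 ± 0.1 for LAMB1. COL3A1 had -2.79 ± 0.16 in shNTC cells and -0.70 ± 0.16 in shISG20 cells, where it had 0.789, 1.08 and 1.25 TPM at 1% O2, against 2.51, 2.22 and 2.17 TPM at 20% O2. ANGPT1 and GDPD2, a phosphodiesterase of glycerophospholipids, differed by -1.74 ± 0.24 and -2.22 ± 0.23. GDPD2 was listed at 0 in all 3 shISG20 libraries at 1% O2, so its difference depends on the pseudocount. ANGPT1 was under 1 TPM at 1% O2 in every library of both subclones, so the size of its difference depends on the pseudocount too. In shISG20 cells ANGPT1 had 0.166, 0 and 0.198 TPM at 1% O2, against 5.19, 3.74 and 4.87 TPM at 20% O2, and in shNTC cells it had 0.567, 0.821 and 0.269 TPM at 1% O2, against 25.4, 24.6 and 23.4 TPM at 20% O2. The number of rows with a difference depended on single libraries, and without replicate 2 of shISG20 cells at 20% O2 it was 364 higher and 256 lower, the lowest counts over the 12 libraries left out in turn. The effect of ISG20 and other traits of the subclones cannot be told apart, since the labels tell no clones apart within a hairpin.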

How the data were processed

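The deposited values are TPM per library, made by the authors. Tools named per the submitters' processing notes were FastQC, STAR and featureCounts with build GRCh38. No tool version and no TPM formula is given in the sources used here. Because mouse reads were set against a human build, genes without a close human match lose reads and similar rows share them. Reads behind the TPM values were recovered from their ratios between libraries (100% of nonzero values whole within 0.01) and were used for depth (3413952 to 4765241 per shNTC library) and for limma voom as an alternative. They are the smallest whole numbers that fit, so a row's true count may be a multiple.

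Rows that reached 1 TPM in 3 or more of 6 libraries were tested on log2(TPM + 1) with limma 3.58.1 (R 4.3.3, variance trend, Benjamini-Hochberg over all rows tested, threshold 0.05); the pseudocount understates changes of low rows. All adjusted p in the text are limma's. The shISG20 contrast was fitted on its own 6 libraries and the difference on 12. The fit was run on simulated data in which few rows were changed, as many up as down. Those data held no shift of the typical row, so the run cannot speak to the choice of scaling. Alternatives were a pseudocount of 0.1, no filter, at least 5 TPM, no trend, quantile normalization, median-of-ratios size factors, removal of the 50 most abundant rows and the mitochondrial genome, mouse-matched rows, voom, each library left out, a replicate block, and all 12 libraries in 1 fit.

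Gene lists (42) and members were chosen with earlier results of these data known. Named genes were ISG20, HIF1A, EPAS1 and ARNT; the 12 highest and 12 lowest log2 fold changes among rows that passed, had at least 5 TPM in the higher group, did not overlap and carry a mouse symbol; up to 4 passing members of each list by smallest p, or its 2 most abundant if none passed; and the 6 highest and 6 lowest differences between subclones among rows with at least 5 TPM in a group. Some of the genes so named are left out of the text. Promoters came from RefSeq (GRCm38.p6), matched by symbol. Python 3.11.15, pandas 2.3.3 and matplotlib 3.10.9 were used.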

Additional observations from a re-analysis of the deposited data

Results flagged for a closer look

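The effect of 1% O2 on the log2(TPM + 1) scale differed between the subclones, shNTC minus shISG20, for the 67 named genes below, each past an adjusted p of 0.05 in limma's test of the difference over 12 libraries, where 7.54% of all rows passed. A positive value means a higher log2 fold change in shNTC cells, whatever the sign of either effect, and the 12 genes with the extreme differences were named for them.

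Among HIF targets and secreted factors the difference was 1.08 for NOS2, 1.41 for ADM, 0.84 for CA12, 0.76 for SLC16A3, 0.71 for DDIT4, 0.61 for ERO1A, 0.18 for PKM, -0.25 for GAPDH, -0.53 for PLOD2 and -0.84 for P4HA1. Among matrix and cytoskeletal genes it was 0.30 for CAPG, -0.55 for GSN, -0.35 for VIM, -0.48 for TMSB10, -0.67 for FN1, -0.99 for LAMB1, -2.09 for COL3A1 and -0.60 for LTBP1. Among genes of ribosome production, translation and splicing it was 0.95 for NOP56, 0.59 for NOP58, 0.72 for NOLC1, 0.86 for MYC, 0.35 for YARS1, 0.62 for SLC7A5, 0.60 for ATF4, 0.50 for SRSF3, 0.58 for TRA2B, 0.18 for XRN2 and -0.11 for RPS12. Among genes of replication, nucleotides and the cell cycle it was 1.21 for FEN1, 0.50 for PLK2, -0.39 for IMPDH2, -0.38 for ADSS2, -0.53 for SMC4 and -0.84 for CDKN2C. Among genes of mitochondria and sterol synthesis it was 0.38 for HSPD1, -0.36 for IDH3G, -0.14 for ATP5F1B and -1.04 for HMGCS1. Among chaperones, the proteasome and redox genes it was 1.59 for HMOX1, 1.74 for SRXN1, 1.61 for SDF2L1, 0.85 for CRYAB, 0.47 for MANF, 0.64 for CAT, 0.73 for PSMC4, 0.70 for PSMC2 and 0.56 for PSME3. Among clock, early response and chromatin genes it was 1.12 for NR1D1, 1.03 for BHLHE41, 0.39 for JMJD6, -0.47 for JUNB and -1.52 for NAB2. Among the rest it was 2.52 for PHLDA2, 1.83 for PMM1, 1.07 for ISG20, 0.57 for SLC24A3, -0.48 for CSF1, -0.60 for PTX3, -1.63 for CIB2, -1.74 for ANGPT1, -1.78 for ADAMTSL4 and -2.22 for GDPD2. The mitochondrial ribosomal RNA rows MT-RNR2 and MT-RNR1 differed by 1.24 and 1.06. The differences of ISG20, ANGPT1 and GDPD2 rest in part on levels under 1 TPM and depend on the pseudocount.

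H2AC8, a histone row, differed by 3.21 and rests on 9 and 2 reads at 1% and 20% O2 in shNTC cells and 3 and 17 reads in shISG20 cells. The row named MIRLET7I differed by -5.38 and rests on 4 and 9 reads in shNTC cells and 5 and 0 reads in shISG20 cells. With size factors 64 of the 67 differences passed in the same direction, and those of PKM, JMJD6 and XRN2 did not, at 0.099, 0.31 and 0.10. The shISG20 group at 20% O2 holds the library labelled 484 hours, and its part in these differences was not tested apart from the counts without it.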

How the results depend on the processing

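In shNTC cells 2787 rows were higher and 3336 lower with quantile normalization and 3210 and 3026 with size factors, against 1768 and 5264 with TPM, where 7781 rows had an unadjusted p under 0.05. In shISG20 cells 3175 were higher and 3713 lower with quantile normalization and 3579 and 3547 with size factors. The difference gave 1188 higher and 737 lower with limma voom on recovered reads, and 599 lower with size factors. HIF1A reversed, at 0.069 with quantile normalization, 0.21 with size factors and 0.016 with voom, and the cause was not tested.

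Without 1 library at a time, 1485 to 1633 rows were higher and 4566 to 4742 lower in shNTC cells, and 1709 to 1796 higher and 5151 to 5593 lower in shISG20 cells. The difference gave 364 to 754 higher and 256 to 344 lower. Its higher count fell by over 1.5 times without shNTC 1% O2 replicate 2 (371), shNTC 20% O2 replicate 1 (406) or 2 (413), shISG20 1% O2 replicate 1 (409) or shISG20 20% O2 replicate 2 (364) or 3 (383), and its lower count without shISG20 20% O2 replicate 2 (256). Same-numbered libraries did not deviate together (correlations 0.0185, -0.00703 and -0.0149), so the numbers were not taken as pairs. With a replicate block 1655 rows were higher and 4869 lower in shNTC cells, 1824 and 5526 in shISG20 cells, and 474 and 298 for the difference.

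Of 178 named genes 176 passed with TPM in shNTC cells, and 171 of them passed in the same direction under every alternative run. Whichever library was left out 174 did, and 173 with size factors. At 3413952 to 4765241 recovered reads per library, rows with few reads carry wide counting error, and leaving out a library leaves a group with 2.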

Other observations

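Of 18 tested enzymes that use oxygen to remove methyl groups from histones, DNA and RNA 4 rose and 3 fell at 1% O2, against 13.1% and 22.5% of all rows, with a median log2 fold change of 0.04. KDM3A, which demethylates lysine 9 of histone H3 and is a known HIF target, had 46.1, 46.3 and 49.1 TPM at 1% O2, against 12.4, 14.3 and 12.4 TPM at 20% O2 (log2 fold change 1.78 ± 0.088, adjusted p = 1.7e-05). ALKBH5, an RNA demethylase, had 210.0, 208 and 232 TPM at 1% O2, against 94.5, 95.9 and 94.3 TPM at 20% O2 (log2 fold change 1.18 ± 0.057, adjusted p = 1.6e-05). Both were higher in each library at 1% O2 than in any at 20% O2, and JMJD6 rose by 0.83. TET3, which oxidises methylated cytosine in DNA, had 5.47, 5.6 and 4.75 TPM at 1% O2, against 12.7, 12 and 12.6 TPM at 20% O2 and fell (log2 fold change -1.10 ± 0.11, adjusted p = 0.00032). KDM4B rose, and KDM4A and KDM5A fell, with log2 fold changes of 0.72, -0.77 and -0.57. These 3 were named after their values were seen.

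Rows of the replacement histone H3.3 were lower. H3-3B had 292, 326 and 362 TPM at 1% O2, against 674, 662 and 672 TPM at 20% O2 (log2 fold change -1.04 ± 0.077, adjusted p = 7.7e-05), and H3-3A had 18.3, 17.6 and 16.4 TPM at 1% O2, against 33.3, 35.3 and 33 TPM at 20% O2 (log2 fold change -0.92 ± 0.081, adjusted p = 0.00016). H2AX, the variant phosphorylated at DNA breaks, averaged 37.4 ± 4.2 TPM at 1% O2, against 64.7 ± 2.02 TPM at 20% O2 (mean ± SD, n = 3 libraries each). The groups were apart in all 3. Of 14 tested histone rows 4 fell, H3C10 the fourth, and 1 rose, H2AC8, against 22.5% and 13.1% of all rows. The part that fell was near the share of all rows. H3C10 and H2AC8 rest on 4 and 9 reads at 1% O2 and 15 and 2 reads at 20% O2.

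Of the mitochondrial genome 3 rows were tested. MT-RNR2, the large ribosomal RNA, had 142, 150.4 and 119 TPM at 1% O2, against 329.6, 287 and 252 TPM at 20% O2 (log2 fold change -1.07 ± 0.12, adjusted p = 0.0005), with no overlap. MT-RNR1, the small one, had 56.1, 45.5 and 41.6 TPM at 1% O2, against 86.5, 68.1 and 82.8 TPM at 20% O2 and passed only with TPM, and MT-CO1, a subunit of complex IV, averaged 159 ± 3.59 TPM at 1% O2, against 145 ± 17 TPM at 20% O2, a difference that did not pass with TPM. The last was named after its values were seen.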
